A study of Homo sapiens with 6 samples.

Results

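The genes described here are those of the BCL2 family, the apoptosome, the inhibitors of apoptosis and the targets of p53, chosen by a fixed list of 48 symbols. Of these, 26 had a probe set that the platform annotation names with exactly that symbol, among 14884 genes named on the array. They were measured in BE(2)-C_tetoff_KDM4C, a derivative of the human neuroblastoma line BE(2)-C with a tet-off construct for KDM4C, a histone H3 lysine 9 demethylase. One group of 3 RNA samples came from cells kept without doxycycline for 6 days (construct on), and the other group of 3 from the same cells kept with doxycycline for 6 days (construct off). Both groups carry the construct and grew in medium with dialysed serum. Cells without the construct were not analysed here, so KDM4C induction and doxycycline withdrawal cannot be told apart, and the labels do not say whether the line is 1 clone.

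Apoptosis through mitochondria is set by the BCL2 family. BH3-only proteins bind the pro-survival members and free or activate the effectors BAX and BAK1, which open the outer mitochondrial membrane. Released cytochrome c then assembles APAF1 into the apoptosome, which activates caspases that the inhibitors of apoptosis hold in check. The p53 protein induces several BH3-only genes together with genes of cell cycle arrest and DNA repair, and some of these genes are also known targets of ATF4 and CHOP (the product of DDIT3), transcription factors of the integrated stress response.

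The promoters of 3 genes are shown because the results turn on them: PLK2 had the largest difference of the 26, its paralog PLK3 had a small one, and PMAIP1 had the next largest. Each run is the 250 bases before the RefSeq start site (GRCh38.p14), 5′ to 3′ on the gene's strand. Capitals mark every match, on either strand, to 1 of 4 motifs: the ATF4 and C/EBP composite core TGATGNAA, the full CRE TGACGTCA, its core TGACG, which a full CRE contains, and the p53 response-element decamer.
PLK2, chr5:58460087-58460336, minus strand: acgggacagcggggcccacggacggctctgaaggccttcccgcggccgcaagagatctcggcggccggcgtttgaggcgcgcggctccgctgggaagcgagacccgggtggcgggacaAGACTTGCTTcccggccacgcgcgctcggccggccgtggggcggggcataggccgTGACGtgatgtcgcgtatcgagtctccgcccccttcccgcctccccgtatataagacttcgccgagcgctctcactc
PLK3, chr1:44800127-44800376, plus strand: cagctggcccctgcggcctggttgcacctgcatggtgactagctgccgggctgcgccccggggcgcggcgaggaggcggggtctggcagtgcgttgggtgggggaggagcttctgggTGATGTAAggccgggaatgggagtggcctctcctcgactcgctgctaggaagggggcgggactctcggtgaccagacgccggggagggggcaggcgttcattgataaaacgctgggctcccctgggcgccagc
PMAIP1, chr18:59899746-59899995, plus strand: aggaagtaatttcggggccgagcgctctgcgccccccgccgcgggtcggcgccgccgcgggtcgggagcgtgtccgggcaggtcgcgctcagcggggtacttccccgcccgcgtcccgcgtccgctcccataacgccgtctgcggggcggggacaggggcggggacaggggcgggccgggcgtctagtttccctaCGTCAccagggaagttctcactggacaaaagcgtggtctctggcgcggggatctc

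The PLK2 window held 1 p53 decamer, from position -132 to -123 before the start, and 1 CRE core from -77 to -73. PLK3 held the ATF4 and C/EBP core from -133 to -126 and neither of the motifs found in PLK2. PMAIP1 held 1 CRE core on the opposite strand, from -55 to -51, and no match to the p53 decamer in this window. Of the 26 measured genes, 22 had a window in the RefSeq table. These genes have 33 windows, since some have several start sites, and shares are given over windows without matching for base composition. The p53 decamer was found in 3 of the 33 (9.09%; AEN, BAK1 and PLK2) and in 5.57% of all 35116 windows. The ATF4 and C/EBP core was found in 2 (6.06%; BCL2A1 and PLK3), against 3.14% of all windows, and the full CRE in 1 (3.03%; BIRC2), against 1.65%. The CRE core was found in 14 (42.4%), from 12 genes, and in 21.2% of all windows. A match describes the letters and does not show a site that is bound.

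PLK2 and PMAIP1 had the largest differences among the 26 genes between cells with the KDM4C construct on and off. Differences of the 26 were otherwise about as small as those of named genes in general, and only 18 of 27 listed genes of the apoptotic machinery were measured, with no caspase. PLK2, a polo-like kinase that was found as a serum-inducible gene and is also a p53 target, rose 1.92-fold without doxycycline. PMAIP1, which encodes the BH3-only protein NOXA, was 1.64-fold higher and just missed the threshold. Of the 26 genes, 1 rose and 0 fell in limma at a Benjamini-Hochberg adjusted p below 0.05, taken over all 53617 probe sets. The same threshold called 0.564% of the named genes (0.43% as higher) and 0.341% of all probe sets. At an unadjusted p below 0.05, 3 were higher (PLK2, PMAIP1 and BAX) and 0 lower, 11.5% of the 26. Over the named genes it was 14.4%, with 7.57% higher. The groups of 3 arrays did not overlap for 7 of the 26, or 26.9%, against 24.6% of the named genes.

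**Figure D1:**
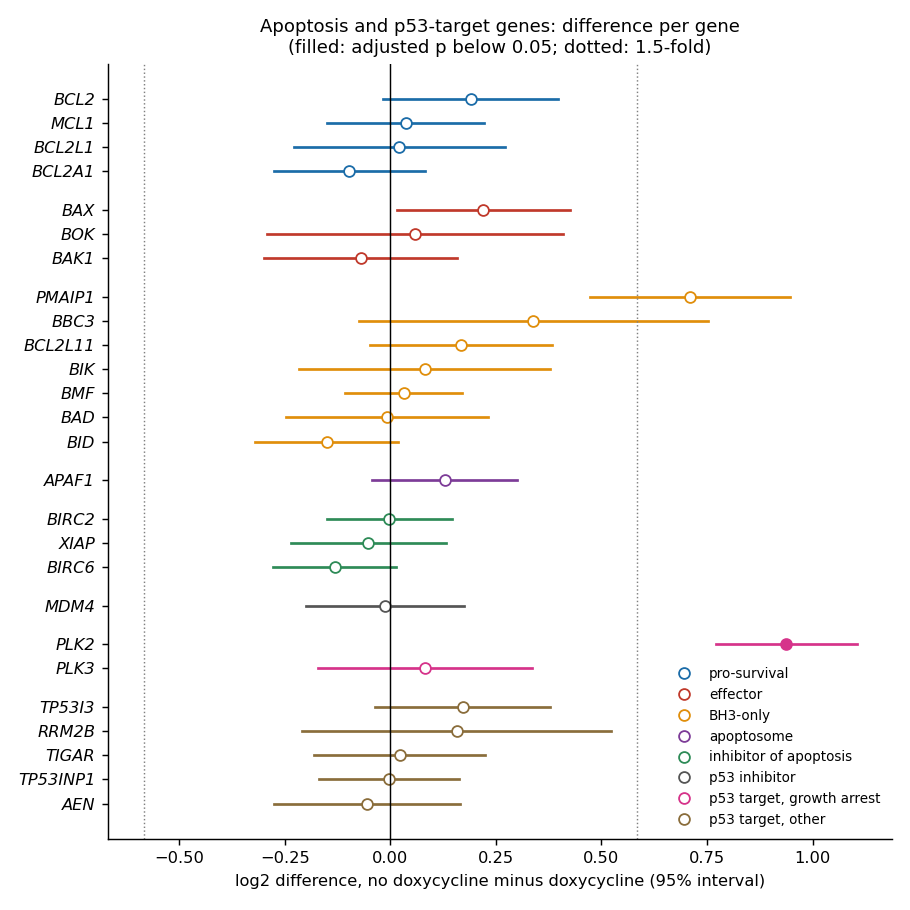
Log2 difference (no doxycycline minus doxycycline) of the 26 measured genes with its 95% confidence interval from limma, coloured by role; the filled point is past an adjusted p of 0.05 and dotted lines mark 1.5-fold. PLK2 at 0.94 and PMAIP1 at 0.71 lie past the right dotted line, and 23 of the 26 intervals lie wholly between the lines.

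The median difference of the 26 was 0.03 on the log2 scale, against -0.002 over the named genes, and the median size without sign was 0.08 against 0.09. The 95% confidence interval lay within 1.5-fold of no change for 23 of the 26 genes, or 88.5%, against 92.9% of the named genes. The 3 exceptions were PLK2, PMAIP1 and BBC3. PLK2 and PMAIP1 had a difference larger than 1.5-fold, 7.69% of the 26 against 0.907% of the named genes. Of the 26, 23 had a mean above that of the median probe set, 3.94 on the log2 scale. BCL2A1, BOK and BIK lay below it, where a change could be missed. The median probe set is not a limit of detection, and BMF at 4.03 and PLK3 at 4.40 lay close above it. PLK2, at 4.93 over the 6 arrays, averaged 4.46 with doxycycline, so its difference starts from a similarly low level.

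**Figure D2:**
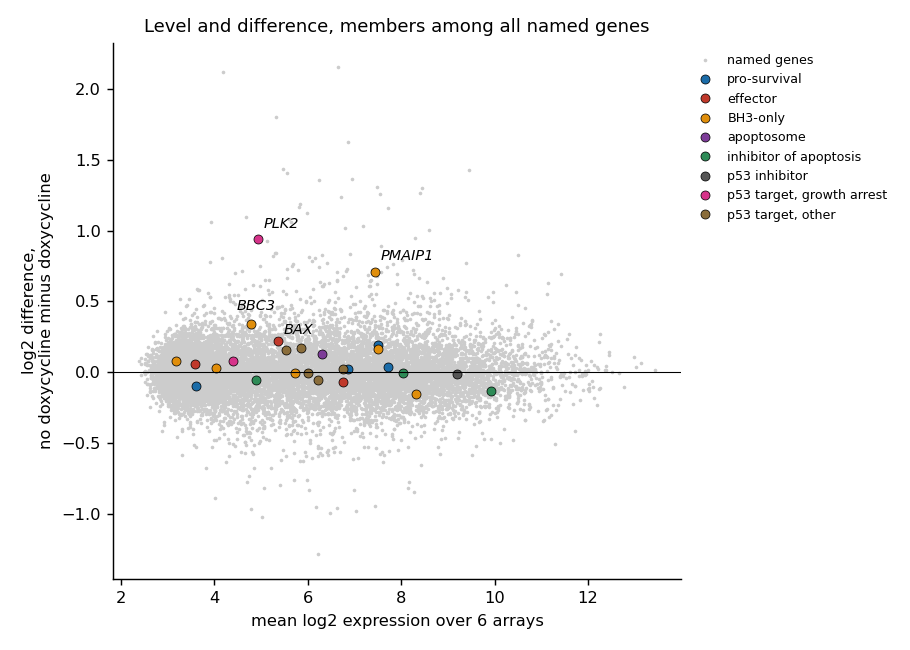
Mean log2 expression over the 6 arrays (horizontal) against the log2 difference, no doxycycline minus doxycycline (vertical), for 14884 named genes in grey and the 26 members coloured by role. PLK2 (0.94) and PMAIP1 (0.71) are the 2 members past 1.5-fold, and other named genes at similar levels reach larger differences.

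The pro-survival members, which bind and restrain the effectors and the BH3-only proteins, showed 0 of 4 genes past either threshold, with a median difference of 0.03. BCL2 read 7.52, 7.74 and 7.56 without doxycycline and 7.45, 7.49 and 7.31 with it (log2). The groups did not overlap, by a narrow margin, and the difference was 0.19 (SE 0.09, limma adjusted p = 0.442). MCL1, the pro-survival partner that NOXA binds most selectively, read 7.68, 7.71 and 7.84 without and 7.68, 7.65 and 7.80 with doxycycline. Its groups overlapped almost wholly, and the difference of 0.04 had a 95% confidence interval of -0.15 to 0.22. BCL2L1, which encodes BCL-XL, was at 6.87 ± 0.15 against 6.85 ± 0.13 (SD, n = 3 each), with an interval of -0.23 to 0.27. BCL2A1 was dim, below the median probe set, and read 3.64, 3.49 and 3.57 without and 3.72, 3.58 and 3.68 with doxycycline. Its groups overlapped, with a difference of -0.10 and an interval of -0.28 to 0.08. BCL2L2 had no named probe set and was not analysed here.

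Of the effectors, which form the pores of the outer mitochondrial membrane, 0 of 3 passed the adjusted threshold, and the median difference was 0.06. BAX (probe set 16863922) read 5.49, 5.35 and 5.59 without doxycycline and 5.26, 5.17 and 5.33 with it. All 3 values without doxycycline lay above the 3 with it, the lowest by a small margin. The difference was 0.22, or 1.16-fold (SE 0.09, limma adjusted p = 0.373). BAK1, the other main effector, read 6.89, 6.59 and 6.71 without and 6.71, 6.85 and 6.84 with doxycycline. The groups overlapped, with a difference of -0.07 and an interval of -0.30 to 0.16. BOK, a relative of BAX and BAK1, was dim, at 3.61 ± 0.28 against 3.55 ± 0.11 (SD, n = 3 each).

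Of the 7 measured BH3-only genes, the upstream sensors of the pathway, 0 passed the adjusted threshold, 5 had a positive and 2 a negative difference, and the median was 0.08. That median was 0.04 without replicate 1 and 0.16 without replicate 2 of the arrays without doxycycline. PMAIP1 (probe set 16852683) read 7.79, 7.91 and 7.68 without doxycycline and 6.93, 7.13 and 7.20 with it. The groups were separated by more than the spread within either. The difference was 0.71 (SE 0.10, 95% confidence interval 0.47 to 0.95), and its limma adjusted p of 0.0565 lay just outside the threshold. It was 0.0424 without dim probe sets, 0.0305 with trend and robust moderation and 0.0101 over named probe sets alone, and ran up to 0.196 over all alternatives.

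BBC3, which encodes PUMA, a BH3-only protein induced by p53 and by CHOP, read 5.01, 5.26 and 4.59 without doxycycline and 4.57, 4.77 and 4.51 with it. Of the 3 values without doxycycline, 2 lay above all those with it, and the remaining array lay among them. The difference of 0.34 had an interval of -0.07 to 0.75, the widest of the 26 (limma adjusted p = 0.494). BCL2L11, which encodes BIM, was at 7.59 ± 0.04 against 7.42 ± 0.15 (SD, n = 3 each), with a difference of 0.17 and overlapping groups. BID, which links death receptors to mitochondria, read 8.28, 8.24 and 8.18 without and 8.38, 8.31 and 8.47 with doxycycline. All 3 values without doxycycline were the lower ones, by -0.15 (SE 0.07, limma adjusted p = 0.454).

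The remaining BH3-only genes had overlapping groups. BAD, which growth factor signalling restrains, was at 5.73 ± 0.16 against 5.74 ± 0.08, and BMF at 4.04 ± 0.01 against 4.01 ± 0.02 (SD, n = 3 each). The dimmer BMF probe set had a difference of 0.15 and did not pass either (limma adjusted p = 0.567). BIK was dim and varied more without doxycycline, at 3.22 ± 0.24 against 3.14 ± 0.06 (SD, n = 3 each), with an interval of -0.22 to 0.38. HRK had no named probe set and was not analysed here.

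**Figure D3:**
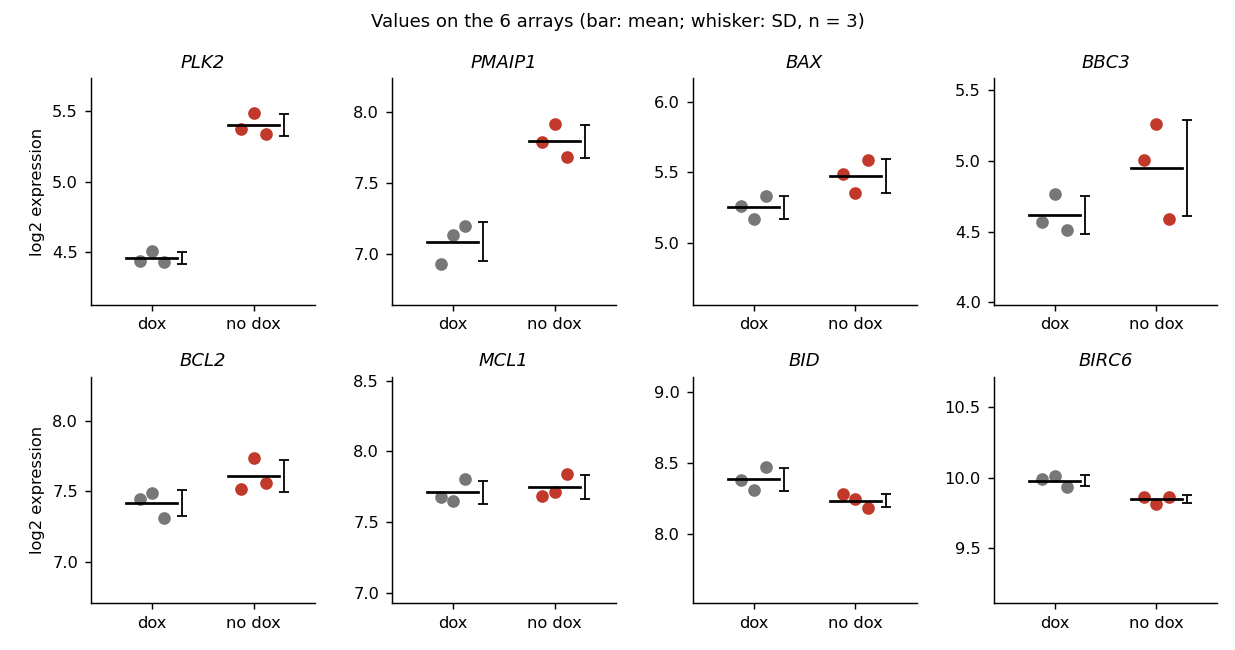
Log2 expression of 8 genes on each of the 6 arrays, with doxycycline (grey) and without (red); horizontal bars are means and whiskers the SD of 3 arrays, and every panel spans the same range of log2 units. PLK2 and PMAIP1 separate by more than the spread within the groups, BAX, BCL2, BID and BIRC6 separate narrowly, and BBC3 and MCL1 overlap.

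Downstream of the mitochondria, 1 gene of the apoptosome was measured. APAF1, its scaffold, read 6.36, 6.41 and 6.31 without doxycycline and 6.14, 6.28 and 6.28 with it. The groups did not overlap, with a difference of 0.13 (95% confidence interval -0.04 to 0.30, limma adjusted p = 0.530). CASP2, CASP6, CASP8, CASP9, CYCS and DIABLO had no named probe set, so no caspase of the list was analysed here.

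Of the 3 measured inhibitors of apoptosis, 0 passed either threshold, and the differences ran from -0.13 to -0.002. BIRC6, a very large ubiquitin ligase of this family, read 9.87, 9.82 and 9.86 without doxycycline and 9.99, 10.02 and 9.94 with it. Every value without doxycycline was lower, by a small amount, -0.13 (SE 0.06, limma adjusted p = 0.451). XIAP, the direct caspase inhibitor, was at 4.87 ± 0.02 against 4.92 ± 0.11, with an interval of -0.24 to 0.13 (SD, n = 3 each). BIRC2 was at 8.04 ± 0.04 in one group and 8.05 ± 0.04 in the other (SD, n = 3 each), with an interval of -0.15 to 0.15. BIRC3 was not analysed here.

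Among the p53 targets and regulators, 8 of 21 listed genes were measured and PLK2 alone passed (limma adjusted p = 0.0130), with a median difference of 0.05 over the 8. PLK2 (probe set 16996433) read 5.37, 5.49 and 5.34 without doxycycline and 4.44, 4.51 and 4.43 with it. The lowest value without doxycycline lay well above the highest with it, and each group was tight. The difference was 0.94 (SE 0.07, 95% confidence interval 0.77 to 1.10). With any 1 of the 6 arrays left out the PLK2 difference stayed between 0.89 and 0.97, but its limma adjusted p rose to between 0.0578 and 0.0906, so the call rests on all 6.

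PLK3, the paralog of PLK2 and likewise linked to stress responses, read 4.48, 4.37 and 4.49 without and 4.16, 4.53 and 4.39 with doxycycline. Its groups overlapped, with a difference of 0.08 and an interval of -0.17 to 0.34. The changes of 3 pairs of genes, chosen after their values were seen, were compared on the same arrays with a two-sided exact permutation test, whose smallest possible p with 3 against 3 arrays is 0.1. The change of PLK2 exceeded that of PLK3 by 0.86, with p = 0.1 in the exact test and 0.15 adjusted over the 3 pairs. The change of PMAIP1 exceeded that of MCL1 by 0.67, with the same exact p of 0.1 (0.15 adjusted). It exceeded that of BBC3 by 0.37, with an exact p of 0.2.

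MDM4, a relative of MDM2 that restrains p53, read 9.13, 9.17 and 9.29 without doxycycline and 9.27, 9.25 and 9.11 with it. The groups interleaved, and the difference of -0.01 had an interval of -0.20 to 0.17. TP53I3, a quinone oxidoreductase gene induced by p53, read 5.80, 6.07 and 5.95 without and 5.81, 5.71 and 5.78 with doxycycline, and 1 array without doxycycline lay among those with it. Its difference was 0.17 (limma adjusted p = 0.489). RRM2B, the p53-inducible ribonucleotide reductase subunit, was at 5.62 ± 0.27 against 5.46 ± 0.18 (SD, n = 3 each), with overlapping groups.

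AEN, an apoptosis-enhancing nuclease, read 6.18, 6.25 and 6.14 without and 6.14, 6.17 and 6.42 with doxycycline. Its groups overlapped, with a difference of -0.05 and an interval of -0.27 to 0.17. TIGAR, a regulator of glycolysis, and TP53INP1, a stress-induced cofactor of p53, had differences of 0.02 and -0.003. Their intervals were -0.18 to 0.22 and -0.17 to 0.16, and their groups overlapped. MDM2, PPM1D, GADD45A, GADD45B, GADD45G, BTG1, BTG2, XPC, DDB2, ZMAT3, FAS, TNFRSF10A and TNFRSF10B had no named probe set and were not analysed here. The death receptors and most arrest and repair genes are therefore not covered.

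Other genes of these pathways, listed separately from the members, mostly showed differences of the same small size. Of 10 other BCL2 relatives, 0 passed the adjusted threshold in limma and 1 an unadjusted p below 0.05, and the median was 0.04. That gene was BNIP3L, a mitophagy receptor, at 0.18 (limma adjusted p = 0.386), and BCL2L10 was at -0.28 with overlapping groups. Of 13 other caspases and executioners listed, 3 were measured, with no caspase among them. ENDOG, a mitochondrial nuclease, was at 0.35 (limma adjusted p = 0.263), while PARP1 and HTRA2 were at 0.01 and 0.02. BIRC5, which encodes survivin, an inhibitor of apoptosis that also acts in mitosis, was at 0.28 (limma adjusted p = 0.252). BIRC7, a dim member of the same family, was at -0.08, and CFLAR, the caspase-8 antagonist FLIP, at -0.05. Of 11 listed genes of death receptor signalling 4 were measured, and 0 of these passed either threshold in limma. The adaptors FADD and CRADD were at -0.14 and 0.10, and PIDD1 at 0.13.

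Of 8 measured genes of the p53 family and its upstream kinases, 0 passed the adjusted threshold in limma and 1 an unadjusted p below 0.05, and the median was -0.01. That gene was ATR, a kinase of the DNA damage response, at -0.18 (limma adjusted p = 0.323), and CDKN2A was at 0.13. CDKN1A had no named probe set and was not analysed here. Of 21 other p53 targets listed 15 were measured, with a median of -0.01. Of the 15, 2 rose and 0 fell past the adjusted threshold, 13.3% against 0.564% of the named genes. At an unadjusted p below 0.05, 4 were higher and 1 lower, 33.3% of the 15 against 14.4% of the named genes, and 40% did not overlap against 24.6%. The 2 were SESN2, a stress-induced inhibitor of mTORC1 (1.63, limma adjusted p = 0.0130), and GDF15, a stress-induced cytokine (1.19, limma adjusted p = 0.0381), which are also known ATF4 or CHOP targets. The other 2 higher genes at the unadjusted threshold, TP53I11 and CCNG2, were each at 0.16 (limma adjusted p = 0.358 and 0.382). CCNG1, a cyclin that p53 induces, was the lowest, at -0.29 (limma adjusted p = 0.135). Its values were 9.86 ± 0.01 without and 10.15 ± 0.03 with doxycycline (SD, n = 3 each), and the groups did not overlap.

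In the ATF4 and CHOP list, 6 of 10 listed genes were measured, all 6 of them higher, with a median of 1.28. Of these, 4 passed the adjusted threshold in limma, 66.7% against 0.564% of the named genes. All 6 had an unadjusted p below 0.05, against 14.4% of the named genes, and groups that did not overlap, against 24.6%. DDIT3, which encodes CHOP, and TRIB3, a pseudokinase that CHOP induces, were at 1.36 and 1.31. DDIT4, a stress-induced inhibitor of mTORC1 signalling, was at 1.30, and ATF5, a transcription factor related to ATF4, at 1.26 (limma adjusted p from 0.0130 to 0.0414 for these 4). The ATF4 transcript, at 0.31, and ATF3, a dim gene at 0.41, did not pass (limma adjusted p = 0.179 and 0.123). The counts of called genes in this list and among the other p53 targets also rest on all 6 arrays. With 1 array left out, 0 to 1 of the 15 p53 targets passed. In the ATF4 and CHOP list 3 of the 6 passed without doxycycline-treated replicate 3, and 0 with any other array left out. Both lists were chosen with earlier results of these data known. The part of ATF4 or CHOP in the PMAIP1 and PLK2 differences was not tested.

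**Figure D4:**
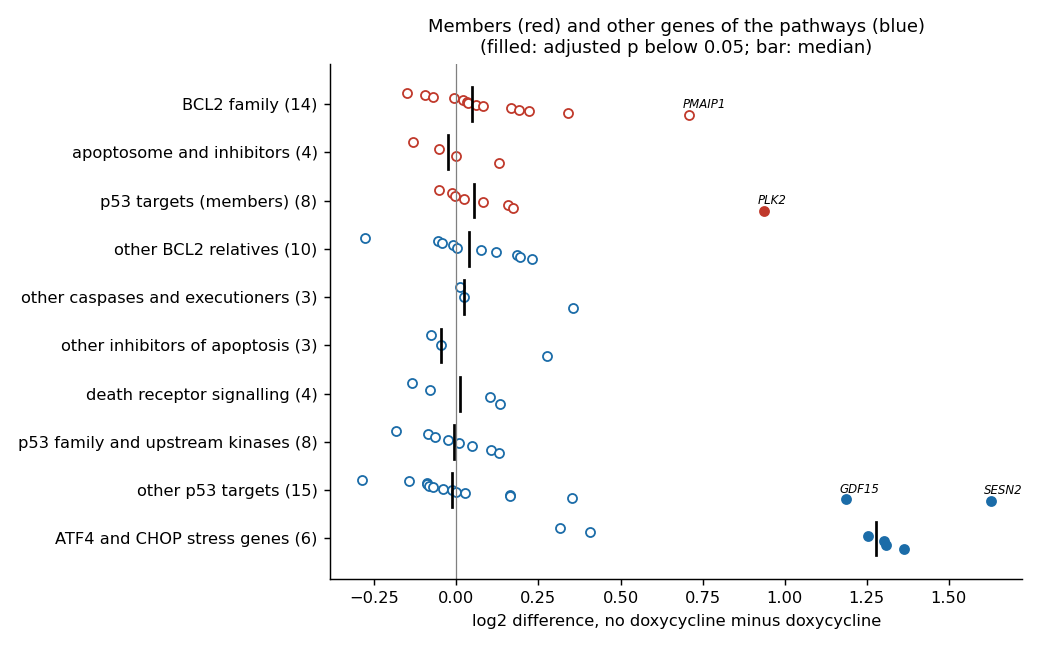
Log2 difference (no doxycycline minus doxycycline) of each measured gene by list, members in red and other genes of the pathways in blue; filled points are past an adjusted p of 0.05 and black bars are medians. SESN2 and GDF15 stand apart from the other p53 targets, whose median is -0.01, and 4 of 6 ATF4 and CHOP genes are filled.

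The arrays were alike, with correlations of 0.991 to 0.993 within groups and 0.990 to 0.991 between them. KDM4C was 2.40-fold higher without doxycycline, the direction of the labels. Of 15 neuroblastoma markers, 13 were measured, and every one lay above the median probe set, from ALK at 7.31 to STMN2 at 12.2 as means of 6 arrays. The mean log2 level of those 13 was 9.91 to 9.97 on the arrays without doxycycline and 9.83 to 9.92 on those with it. Single markers moved in both directions, and that mean does not show it. At an unadjusted p below 0.05, 4 of the 13 were higher and 3 lower, 53.85% against 14.4% of the named genes. The groups did not overlap for 9 (69.2%), against 24.6% of the named genes, but 0 passed limma's adjusted threshold. The receptor kinase gene ALK was at 0.54, TH and DBH, of catecholamine synthesis, at 0.34 and 0.28, and the transcription factor gene HAND1 at 0.33. The granin genes CHGA and CHGB were at -0.40 and -0.34, and STMN2 at -0.23. The part of this in the members' differences was not tested. The 3 measured of 9 fibroblast and Schwann markers averaged at most 5.05 on any array without and at least 5.48 on any with doxycycline. They include DCN, a matrix proteoglycan gene, which fell by 1.29 on the log2 scale. SOX10 was at 3.81 against 3.96 and S100B at 5.66 against 5.84. Of 7 blood and immune markers 4 were measured, with means of 4.08 to 4.20 on the arrays without and 4.01 to 4.16 on those with doxycycline. The 4 measured of 6 endothelial markers averaged 3.12 to 3.20 and 2.97 to 3.13, and the 5 measured of 6 epithelial markers 4.52 to 4.74 and 4.55 to 4.59. These means overlapped between the groups in all 3 lists but hide single genes. All 4 endothelial markers were higher without doxycycline and below the median probe set. Of them ERG, at 0.31, had groups that did not overlap (limma unadjusted p = 0.0229, adjusted p = 0.307). That is 25% at an unadjusted p below 0.05 and 25% without overlap, against 14.4% and 24.6% of the named genes. Of the epithelial markers 4 were higher and 1 lower, and KRT18, at a level of 7.49, was 0.13 higher without overlap. The part of other cell types in the differences of PLK2 and PMAIP1 was not tested. In bulk RNA, fewer cells with a transcript and less of it per cell cannot be told apart. The samples are called independent without separate cultures being named. The p-values therefore set each difference against the variation between these samples, moderated by limma over all probe sets. Whether that is variation between separate cultures is not stated.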

How the data were processed

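Total RNA of 6 samples was hybridised to Affymetrix whole-transcript arrays. The deposited table holds 1 log2 value per probe set and array, made by the authors with Partek, per the submitters' processing notes. How they corrected background, normalized and summarized probes, and on which build, is not stated there. The number of arrays limits the precision.

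Names came from GEO's annotation of the platform (16098 of 53617 with 1 symbol, the rest unnamed here). The probe set with the highest mean stood for a gene. The whole table was fitted by limma 3.58.1 under R 4.3.3 (lmFit, eBayes, no filter, no covariate), as no doxycycline minus doxycycline, with Benjamini-Hochberg adjustment over all of them and a threshold of 0.05. The procedure was tested on simulated data. Promoters and symbols come from RefSeq, GRCh38.p14.

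The members and lists were chosen with earlier results of these data known, so no list was tested as a set. Described with all 6 values are members at an unadjusted p below 0.05 and, per role, the smallest p in each direction. MCL1, BBC3 and PLK3 were added after their values were seen, and other members are given by mean or interval. Among the other genes of the pathways, those past the threshold and the smallest p in each direction are named, with a few others added for their role. Cell type markers are given as list means, and single genes are named in some of those lists only. Alternatives were normalization, dim probe sets, moderation, probe set choice, the replicate number as a block, and each array left out.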

Additional observations from a re-analysis of the deposited data

How the results depend on the processing

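The number of members called higher, 1, was 2 without dim probe sets, 2 with trend and robust moderation and 2 over named probe sets only, where PMAIP1 joined PLK2, and 0 with the replicate number as a block. With 1 array left out it was 0 each time. All probe sets called, 183, became 311 without dim probe sets, 385 with trend and robust moderation and 412 over named probe sets only. The block, which leaves fewer residual degrees of freedom with 6 arrays, gave 0, and leaving out 1 array gave 0 to 15. Members at an unadjusted p below 0.05 and lower, 0, became 1 with array medians subtracted, 2 with trend and robust moderation and 0 to 1 with 1 array left out. Those higher, 3, were 2 to 3 with 1 array left out and 2 to 4 under the other settings, but not always the same genes. The unadjusted limma p of BAX ran from 0.0188 to 0.122 with 1 array left out. It was 0.0785 with trend and robust moderation. Without replicate 1 of the arrays without doxycycline, BAX was at an unadjusted limma p of 0.0890 and TP53I3 at 0.0267. The causes of these changes were not tested.

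Same-numbered arrays did not deviate together (correlations of -0.01, -0.01 and 0.04), and 1 of 3 arrays without doxycycline correlated best with its own number. With the replicate block the limma adjusted p of PLK2 was 0.119 and that of PMAIP1 0.196, and 0 of the other p53 targets and 0 of the ATF4 and CHOP genes were called.

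Across 7 other settings the PLK2 difference was 0.92 to 0.94 and that of PMAIP1 0.69 to 0.72, and 0 of the 12 members named by the rule changed sign. With 1 array left out BAK1 ran from -0.15 to 0.0017, MDM4 from -0.064 to 0.019 and AEN from -0.11 to 0.033, so their signs are not settled. With 1 array left out, role medians ran from -0.031 to 0.089 for pro-survival genes, -0.040 to 0.22 for effectors, 0.036 to 0.16 for BH3-only genes, -0.11 to -0.014 for inhibitors of apoptosis and -0.051 to 0.068 for other p53 effectors.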
